A study of Homo sapiens with 12 samples.

Results

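The difference between 2 glioblastoma cell lines in their response to XRN2 knockdown was examined gene by gene. The response of a line is the log2 fold change of XRN2 siRNA libraries against the control libraries of that line, and the difference is the LN229 response minus the U251 response. A positive difference therefore means a response that is more upward, or less downward, in LN229. The genes described are those expressed in both lines, with a mean of at least 5 CPM (counts-per-million of exon reads, with TMM scaling factors) over the 4 controls of each line. They number 10436, which is 73.33% of the 14232 genes tested and a part of the 58174 genes in the tables. PTHLH, at 5.00 CPM in the LN229 controls, lay just inside this limit, and AP1S3, at 4.99, just outside.

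LN229 and U251 are established human glioblastoma lines. Each was reverse transfected with XRN2 siRNA, with a control siRNA, or without siRNA (mock), and RNA was taken 72 h later. Mock and control siRNA together formed the control of a line, so that 4 control libraries stood against 2 XRN2 siRNA libraries in each line, 12 in all. LN229 was grown in DMEM with 5% fetal bovine serum and U251 in EMEM with 10%, so line and medium cannot be told apart. The labels do not say whether the 2 libraries of a group came from separate cultures, so the p-values reflect the scatter among these libraries alone, which may be technical. GFAP, the astrocytic intermediate filament, lay at 2351 to 6903 CPM in the U251 libraries and at 1.06 to 4.35 in LN229, where this defining glial marker was close to absent.

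XRN2 is the main 5′-to-3′ exoribonuclease of the nucleus. It is known to degrade the RNA left on RNA polymerase II after cleavage at the poly(A) site, which helps release the polymerase, and to act in the processing of ribosomal and small nucleolar RNA. The transcripts measured here are mostly mature polyadenylated mRNAs, whose levels can change without any change at their own termination site.

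Between 4846768 and 7469052 exon reads were counted per library, and a count of 0 allows up to 3 reads, or 0.402 to 0.619 CPM, for counting error only. Both lines had a control library that stood apart from its replicate. In LN229 control siRNA replicate 1, introns took 5.58% of gene reads against 7.604% to 9.55% elsewhere, and the log2 ratio of replicate 2 to replicate 1 rose with exon length across genes (Spearman 0.62; −0.12 to 0.05 in the other 5 pairs). In U251 mock replicate 2, transcripts of the unfolded protein response were high, with HSPA5, an endoplasmic reticulum chaperone, at 19522 CPM against 1474 to 1637 in the other U251 libraries. Results are therefore given with all 12 libraries and, where they rest on these 2, without both. Leaving out the libraries with the widest spread also lowers the estimated error, with a median standard error of the difference of 0.16 in place of 0.23.

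The knockdown target was checked first. XRN2 (ENSG00000088930) lay at 229 and 235 CPM in mock, at 202 and 243 with control siRNA and at 33.5 and 25.6 with XRN2 siRNA in LN229. In U251 it lay at 138 and 143, at 144 and 134, and at 31.0 and 26.2 CPM. All 4 XRN2 siRNA libraries were far below the controls of their line, and 13.01% of the control level remained in LN229 against 20.4% in U251. XRN2 fell by 2.94 (SE 0.15, adjusted p = 7.64e-08) on the log2 scale in LN229 and by 2.29 in U251 (SE 0.15, adjusted p = 1.83e-06; quasi-likelihood F-test of edgeR). The difference of −0.65 (SE 0.19), a deeper fall in LN229, missed the threshold with all libraries (edgeR adjusted p = 0.402) and passed it without both libraries that stood apart (−0.67, SE 0.15, adjusted p = 0.0389). The LN229 controls started from a higher level, 227 ± 17.8 CPM against 139.9 ± 4.57 (SD, n = 4), and the XRN2 siRNA libraries ended near each other, at 29.6 ± 5.60 and 28.6 ± 3.45 CPM (SD, n = 2).

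Responses were wider in LN229 than in U251. Across the 10436 genes the LN229 response had an SD of 0.35 on the log2 scale and the U251 response one of 0.24, a ratio of 1.46, and the LN229 response was the larger in size for 6940 genes (66.5%). A change of at least 2-fold was seen for 125 genes in LN229 and for 44 in U251. For scale, control siRNA minus mock had an SD of 0.25 in LN229 and 0.24 in U251, with all libraries. With all libraries the U251 response was no wider than the difference between its 2 kinds of control, which includes mock replicate 2. These measures are not alike. The control difference sets mean log2 CPM of 2 libraries against 2, and the response is a fitted fold change of 2 against 4. The SD of the control difference without mock replicate 2 was not computed. Replicate 2 minus replicate 1 with XRN2 siRNA had an SD of 0.30 in LN229 and 0.18 in U251. Without both libraries that stood apart the SDs of the responses were 0.33 in LN229 and 0.19 in U251. In LN229, 705 genes passed the test (6.76% of the 10436; edgeR, Benjamini-Hochberg adjusted p under 0.05), 215 higher (2.06%) and 490 lower (4.7%). Over all 14232 genes tested the shares were 6.12%, 2.44% and 3.68%. In U251, 2 of the 10436 genes passed (0.0192%, beside 0.0632% of all tested), XRN2 and IGFBP3, an insulin-like growth factor binding protein that rose. By limma-voom with sample weights 451 passed in U251 and 1438 in LN229. With mock alone as the control 139 passed in LN229, and with control siRNA alone 374. Without TMM factors the LN229 calls were 359 higher and 364 lower. The LN229 count fell to 15 without LN229 XRN2 siRNA replicate 2, which lay farther from the controls than replicate 1 for 661 of the 705 genes (93.8%), and it reached 1253 without LN229 control siRNA replicate 1 and 1104 without U251 mock replicate 2. Without both libraries that stood apart it was 2433 (23.3%; 10.3% higher and 13% lower), and U251 had 66 (0.632%). The XRN2 siRNA libraries lay wholly above the 4 controls for 14.9% of the genes in LN229 and 12.9% in U251, and wholly below them for 20.4% and 12.5%.

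The direction of the responses was mostly shared. Over the 10436 genes the responses had the same sign for 6712 (64.3%), with a Pearson r of 0.42 and a Spearman rho of 0.42 across genes, which are not independent replicates. With unique exon reads r was 0.27. Of the 215 genes that rose in LN229, 171 (79.5%) had a positive response in U251, with a median of 0.20 against 0.72 in LN229. Of the 490 that fell, 427 (87.1%) had a negative response in U251, with a median of −0.22 against −0.72. The scatter of both responses shows this flatter spread along the U251 axis.

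**Figure D1:**
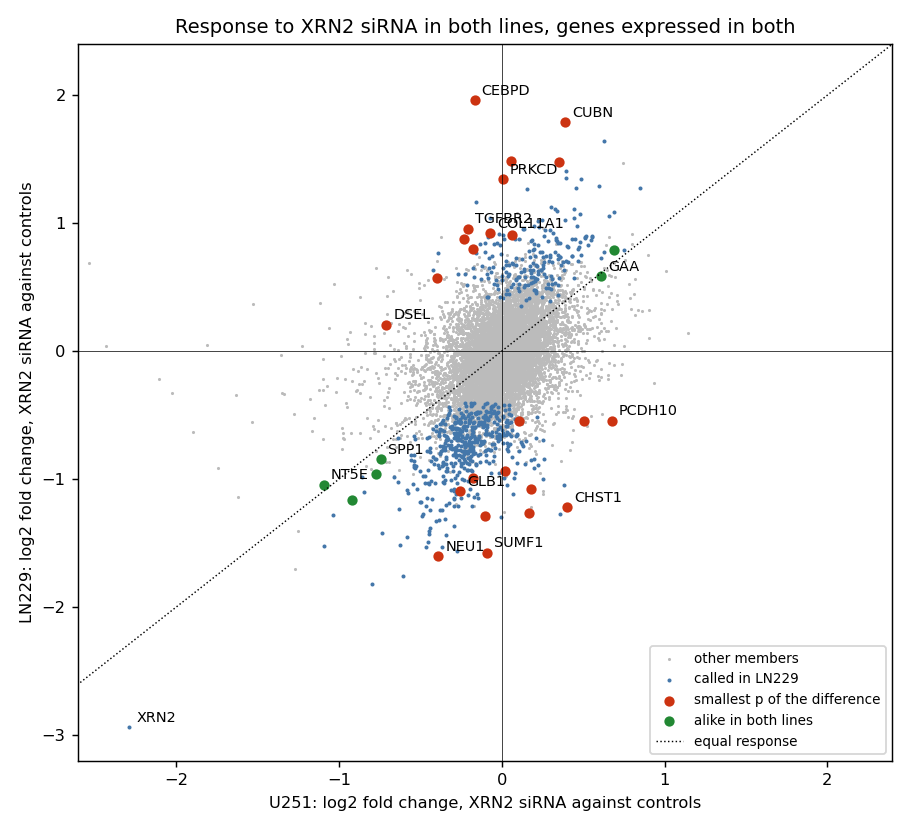
Log2 fold change of XRN2 siRNA against controls in U251 (horizontal axis) and LN229 (vertical axis) for the genes expressed in both lines, 6 of which lie outside the axes; the dotted line marks equal responses. Blue points are the genes called in LN229, red points the 24 genes with the smallest p for the difference and green points 6 genes that responded alike; the cloud is taller than it is wide, with SDs of 0.35 and 0.24.

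No single gene passed the test of the difference with all 12 libraries. By edgeR's quasi-likelihood test 0 of the 10436 genes (0%) had an adjusted p under 0.05, and the smallest adjusted p was 0.0688. At an unadjusted p under 0.05 there were 811 genes (7.77%), 276 with a higher difference (2.64%) and 535 with a lower one (5.13%), beside 7.66%, 2.93% and 4.73% of all genes tested. A difference of at least 1.5-fold was seen for 292 genes upward (2.8%) and 416 downward (3.99%), and one of at least 2-fold for 50 (0.479%) and 52 (0.498%). DESeq2 called 33 genes (0.316%) and limma-voom with sample weights 90 (0.862%). EdgeR called 13 without LN229 control siRNA replicate 1 and 2 without U251 mock replicate 2. In 16 of the 25 alternative settings the count stayed at 0. Leaving out an XRN2 siRNA library leaves 1 in its group, and the count then depended on which library was left out. Without both libraries that stood apart edgeR called 134 genes (1.28%), 71 with a higher difference (0.68%) and 63 with a lower one (0.604%). All 134 had the same sign of difference with all 12 libraries, where 109 of them had an unadjusted p under 0.05. The fits share every library but the 2 left out, so this likeness was largely fixed in advance. Of the 134, which were picked for a low p of the difference, 120 had the larger response in LN229, and for 84 the responses had opposite signs. Over all 10436 genes, with all 12 libraries, the LN229 response was the larger for 66.5%, and the signs were the same for 64.3%. The genes called by DESeq2, by limma-voom and by edgeR without both libraries numbered 24, and where a gene is said below to be called by all 3, it is one of these. These settings share their libraries and are not independent, and the main fit called none of the 24. Limma-voom gave its lowest sample weights to the 2 libraries that stood apart, 0.149 for LN229 control siRNA replicate 1 and 0.254 for U251 mock replicate 2.

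**Figure D2:**
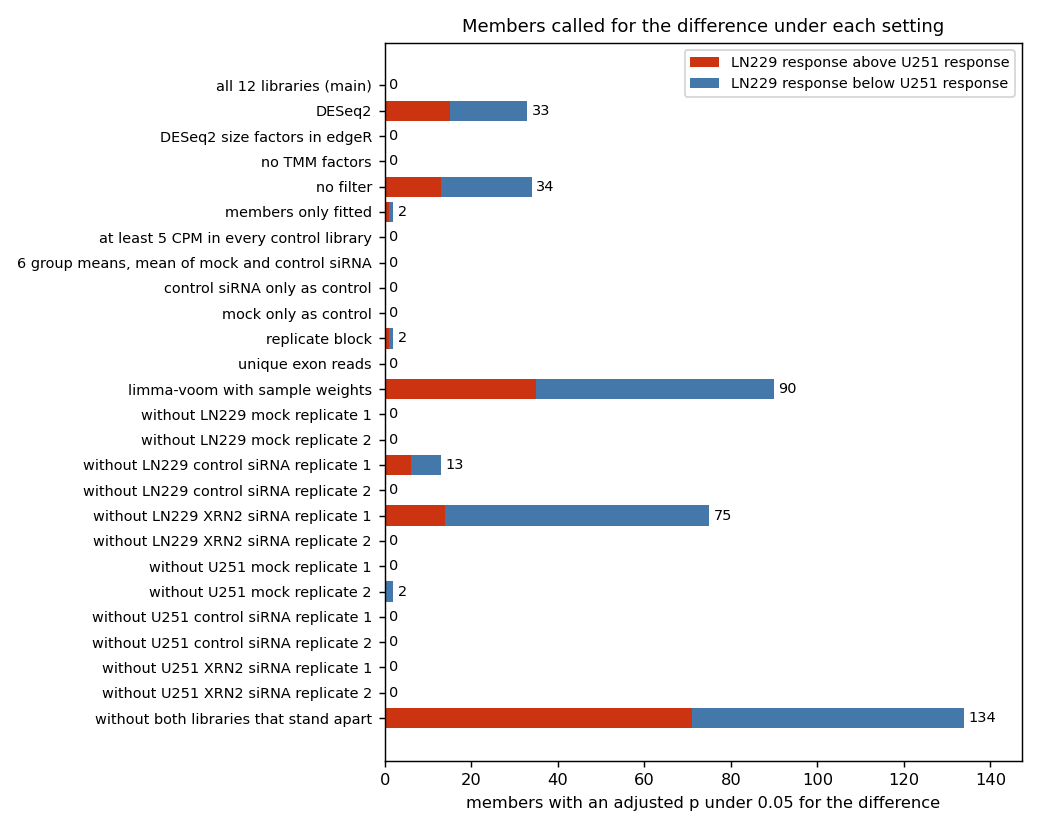
Number of genes, of the 10436 expressed in both lines, with an adjusted p under 0.05 for the difference between the lines, one bar per setting; red marks a higher LN229 response and blue a lower one. The bar for all 12 libraries is at 0, and the longest bars are at 134 (without both libraries that stand apart), 90 (limma-voom) and 75 (without LN229 XRN2 siRNA replicate 1).

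SUMF1, NEU1 and GLB1, of the lysosomal list, had the smallest p-values among the genes with a lower difference. SUMF1 encodes the enzyme of the endoplasmic reticulum that activates sulfatases, NEU1 the lysosomal sialidase, GLB1 the lysosomal beta-galactosidase that forms a complex with it, and CTSB the cysteine protease cathepsin B. Transcription of many lysosomal genes is known to be driven by the factor TFEB through E-box sequences near their start sites. The E-box core CACGTG, which reads the same on both strands, was searched for in the RefSeq promoters (GRCh38.p14; 250 bases before to 50 after a start). It was present in 2030 of 27305 promoters (7.4%). Of the 48 lysosomal genes in the list 31 had a promoter in the table, and 9 of these held the core. The windows of 30 bases below are shown because SUMF1 and NEU1 are the members of the list with the smallest p for the difference, while GAA (acid alpha-glucosidase) and CTSD (cathepsin D) did not differ beyond their errors. Capitals mark the core, each window is written 5′ to 3′ on the gene's own strand, and all 4 genes carry it.
SUMF1, chr3:4467265-4467294, minus strand: ggagggctcagcCACGTGaccaaccgggtc
NEU1, chr6:31862930-31862959, minus strand: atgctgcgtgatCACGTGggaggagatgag
GAA, chr17:80101493-80101522, plus strand: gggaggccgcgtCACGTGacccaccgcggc
CTSD, chr11:1763957-1763986, minus strand: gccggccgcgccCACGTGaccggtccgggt
The core shown began 13 bases before the start site in SUMF1, 126 in NEU1, 76 in GAA and 47 in CTSD. GAA held a further core 31 bases before its start site, GLB1 held none, and CTSB had no promoter to search. The core was found for 2 of 7 matched lysosomal genes with a lower difference at an unadjusted p under 0.05 and for 7 of the other 24. A match is a description of the sequence and not a measured site.

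SUMF1 (ENSG00000144455; chromosome 3, 3700814 to 4467281, minus strand, GRCh38 coordinates as in the files) lay at 45.1, 43.6, 44.2 and 41.9 CPM in the LN229 controls and at 17.6 and 11.4 with XRN2 siRNA. In U251 the controls lay at 48.0, 38.9, 48.2 and 45.6 CPM and the XRN2 siRNA libraries at 43.4 and 41.4. The groups were wholly apart in LN229 and overlapped in U251. SUMF1 fell by 1.57 (SE 0.16, adjusted p = 0.000434) in LN229, and its U251 response was −0.09 (SE 0.14, adjusted p = 0.94). The difference of −1.48 (SE 0.21; 95% interval −1.94 to −1.02) had an edgeR adjusted p of 0.0688 with all libraries and 0.00121 without both that stood apart, and it passed in 9 of the 25 alternative settings.

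NEU1 (ENSG00000204386; chromosome 6, 31857659 to 31862906, minus strand) lay at 72.5 to 85.3 CPM in the 4 LN229 controls and at 29.7 and 22.1 with XRN2 siRNA. The U251 controls lay at 101 to 124 CPM and the XRN2 siRNA libraries at 85.9 and 83.4. Both lines were thus wholly below their controls, by 1.60 (SE 0.15, adjusted p = 0.000129) in LN229 and, without passing the test, with −0.39 (SE 0.13, adjusted p = 0.503) in U251. Their difference was −1.21 (SE 0.19, edgeR adjusted p = 0.0709), and −1.09 (SE 0.15, adjusted p = 0.00214) without both libraries that stood apart. GLB1 (ENSG00000170266; chromosome 3, 32996608 to 33097230, minus strand) lay at 106.8 to 112 CPM in the LN229 controls against 55.6 and 46.3, and at 133 to 159.6 CPM in the U251 controls against 116.5 and 121. Its difference was −0.83 (SE 0.16, adjusted p = 0.152), and −0.75 (SE 0.12, adjusted p = 0.0071) without both. CTSB lay at 401 to 479 CPM in the LN229 controls against 251.2 and 192, and at 575 to 671 in U251 against 556 and 544.5, with a difference of −0.81 (SE 0.18, adjusted p = 0.231) and −0.69 (SE 0.12, adjusted p = 0.012) without both. SUMF1, NEU1, GLB1 and CTSB were all called by all 3.

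The lysosomal list as a whole was split. It held 48 genes expressed in both lines, 19 with a positive and 29 with a negative difference and a median of −0.11, beside −0.03 over all 10436 genes, of which 45.3% were positive. Without both libraries the median was 0.02, with 28 positive and 20 negative. The 4 genes above were then the calls (8.33%, beside 1.28% of all 10436 genes). Of the 48, 9 fell and 2 rose in LN229, beside 4.7% and 2.06% of all 10436 genes, and none passed in U251. Without both libraries 11 fell and 10 rose in LN229, beside 13% and 10.3%. GAA rose in LN229 by 0.58 (SE 0.13, adjusted p = 0.018) and had a U251 response of 0.61 (SE 0.13, adjusted p = 0.219). TFEB itself had a response of −0.19 in LN229 and 0.73 in U251, neither past the test, and a difference of −0.92 (SE 0.32, adjusted p = 0.499).

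**Figure D3:**
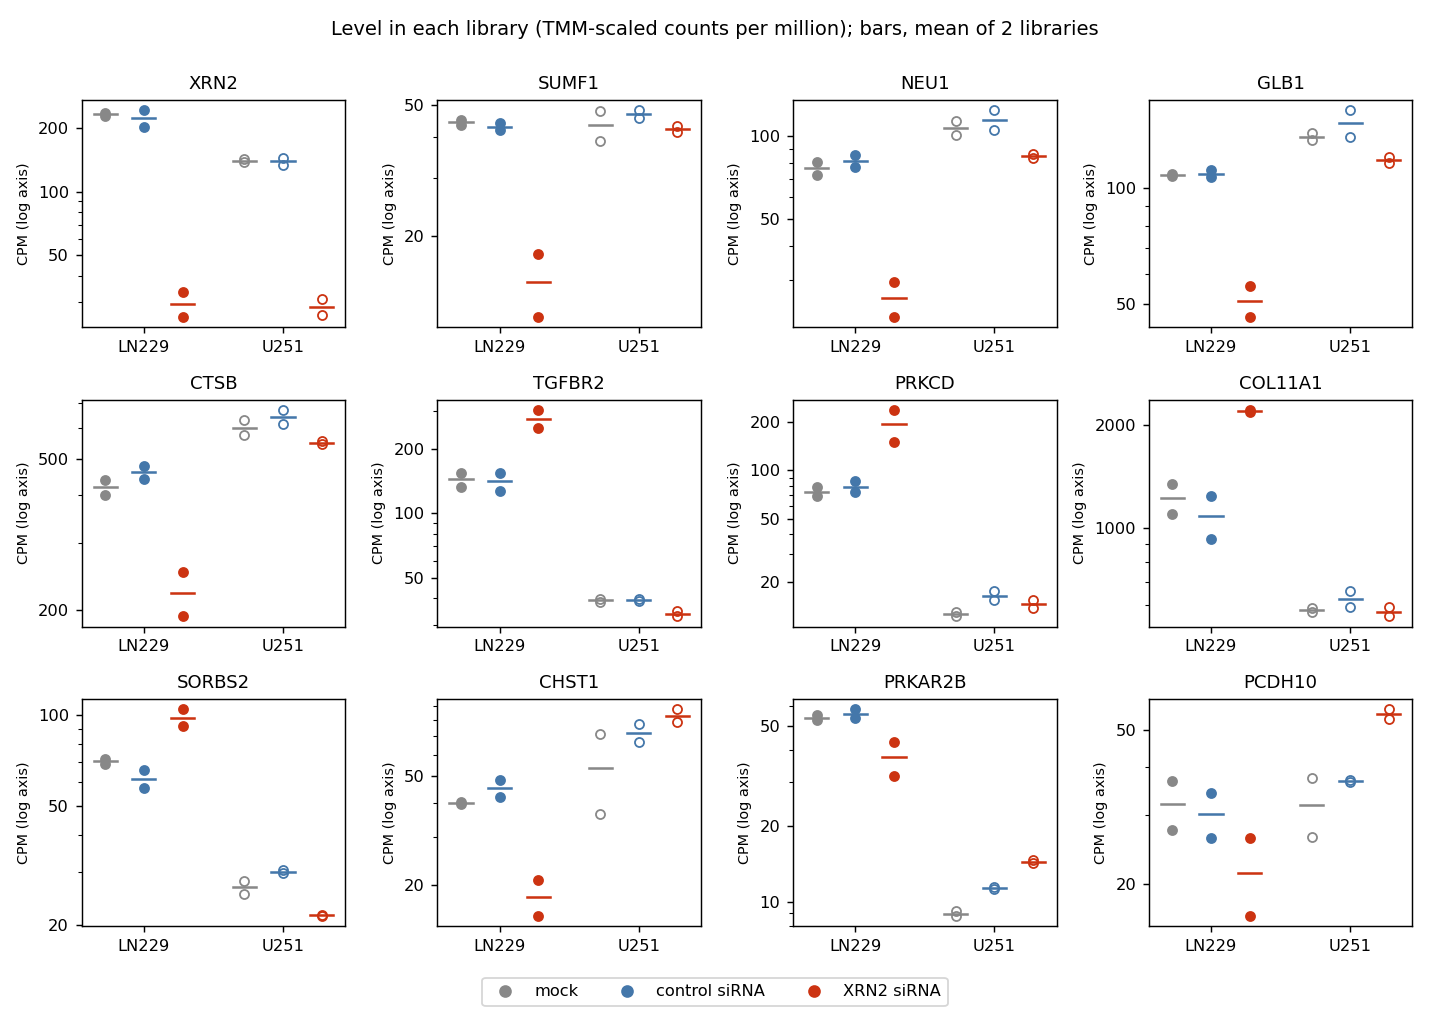
CPM on a log axis in each library for XRN2 and 11 genes with a low p for the difference or with opposite responses; filled points are LN229, open points U251, and bars are means of 2 libraries. SUMF1, NEU1, GLB1 and CTSB are low in the LN229 XRN2 siRNA libraries alone by a wide margin, TGFBR2, PRKCD and COL11A1 are high there, and CHST1, PRKAR2B and PCDH10 lie below the controls in LN229 and above them in U251.

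Of the 34 signalling receptors and kinases expressed in both lines, 17 had a positive and 17 a negative difference (median 0.01), and without both libraries 13 were positive and 21 negative (median −0.04). TGFBR2 (ENSG00000163513; chromosome 3, 30606502 to 30694142, plus strand), the type II receptor for TGF-beta, lay at 133, 155, 128 and 154 CPM in the LN229 controls and at 249.7 and 305 with XRN2 siRNA. In U251 it lay at 39.8, 38.6, 39.8 and 38.8 CPM in the controls and at 35.1 and 32.9 with XRN2 siRNA. The XRN2 siRNA libraries were wholly above the controls in LN229 and wholly below them in U251. TGFBR2 rose by 0.96 (SE 0.12, adjusted p = 0.000919) in LN229, while the U251 response of −0.21 (SE 0.13, adjusted p = 0.778) did not pass. The difference was 1.16 (SE 0.18; 95% interval 0.79 to 1.54; edgeR adjusted p = 0.0688) and, without both libraries that stood apart, 1.16 (SE 0.15, adjusted p = 0.00121).

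PRKCD, which encodes protein kinase C delta, rose in LN229 from 69.1 to 85.1 CPM in the controls to 149.8 and 238 with XRN2 siRNA. In U251 the controls (12.2 to 17.6 CPM) and the XRN2 siRNA libraries (15.4 and 13.8) overlapped. Its difference was 1.34 (SE 0.27, adjusted p = 0.165), and it did not pass without both libraries either (1.48, SE 0.35, adjusted p = 0.0953). SORBS2 (ENSG00000154556; chromosome 4, 185585444 to 185956652, minus strand), an adaptor of actin and focal adhesions, lay at 57.1 to 71.7 CPM in the LN229 controls against 91.9 and 105, and at 25.3 to 30.5 CPM in the U251 controls against 21.7 and 21.4. SORBS2 thus stood wholly above the controls in LN229, where it rose by 0.57 (SE 0.12, adjusted p = 0.0132), and wholly below them in U251 (−0.40, SE 0.14, adjusted p = 0.512). The difference of 0.97 (SE 0.18, adjusted p = 0.132) passed without both libraries (1.00, SE 0.14, adjusted p = 0.00214). SHTN1, a neuronal polarity protein, rose in LN229 from 79.7 to 93.0 CPM to 151 and 177, beside U251 controls at 68.8 to 82.3 CPM and XRN2 siRNA libraries at 80.8 and 83.2. SORBS2, TGFBR2 and SHTN1 were called by all 3.

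Further genes had a higher difference, most of them with a rise in LN229. CUBN, the endocytic receptor cubilin, went from 4.03 to 6.60 CPM to 19.95 and 19.5 in LN229 and lay at 7.425 to 13.7 CPM in the U251 controls against 13.7 and 14.7. CEBPD, a C/EBP transcription factor, had the largest difference among the 24 genes with the smallest p, 2.13 (SE 0.45, adjusted p = 0.231), with LN229 values of 11.9 to 19.6 CPM in the controls and 34.9 and 80.5 with XRN2 siRNA. The XRN2 siRNA replicates of CEBPD differed from each other by more than the lower one differed from the controls. The other genes of this set were DLX5 (a homeobox factor), DMTN (an actin-bundling protein), SAMHD1 (a dNTP hydrolase) and SLC46A3 (a lysosomal transporter). Each of the 4 rose in LN229, by 0.80 to 1.49 on the log2 scale, with U251 responses between −0.23 and 0.35 and differences of 0.97 to 1.43. DSEL was the exception, with a LN229 response of 0.21 and a U251 response of −0.71 (SE 0.16, adjusted p = 0.219), where the XRN2 siRNA libraries (37.9 and 33.6 CPM) were wholly below the controls (51.1 to 69.7). Without both libraries that stood apart 10 of the 12 genes named here with a higher difference passed, the exceptions being PRKCD and CEBPD.

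Extracellular matrix genes went both ways. COL11A1 (ENSG00000060718; chromosome 1, 102876467 to 103108496, minus strand), a fibrillar collagen chain, lay at 1101, 1349, 933 and 1239.9 CPM in the LN229 controls and at 2208 and 2173 with XRN2 siRNA, while U251 lay at 572 to 655 CPM in the controls and at 590.2 and 554 with XRN2 siRNA. COL11A1 rose by 0.92 (SE 0.13, adjusted p = 0.00186) in LN229 and had a difference of 0.99 (SE 0.20, adjusted p = 0.152), and 0.97 (SE 0.11, adjusted p = 0.00121) without both. THBS2, the matrix glycoprotein thrombospondin 2, fell in LN229 from 307 to 445 CPM to 219.7 and 168 and lay at 115 to 134 CPM in the U251 controls against 124 and 126. The difference of THBS2 was −0.95 (SE 0.21, adjusted p = 0.231), and −0.96 (SE 0.16, adjusted p = 0.0103) without both. Of the 32 collagens, laminins and matrix glycoproteins, 20 had a positive and 12 a negative difference. The calls without both libraries were COL11A1 and LAMC1 (higher) and FBN1, THBS2 and FN1 (lower). They made up 15.6% of the 32, beside 1.28% of all 10436 genes. Among 34 integrin and focal adhesion genes, 7 fell and none rose in LN229, beside 4.7% and 2.06% of all 10436 genes, and without both libraries 14 fell and 1 rose, beside 13% and 10.3%. ITGB1, the common beta chain of many integrins, fell by 1.43 (SE 0.21, adjusted p = 0.00186) in LN229 and had a U251 response of −0.45 (SE 0.20, adjusted p = 0.651).

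Several single genes outside the lysosomal list had a lower difference. ID1, an inhibitor of basic helix-loop-helix factors, fell in LN229 from 40.2 to 69.6 CPM to 26.5 and 21.9 and lay at 152 to 217 CPM in the U251 controls against 216 and 211, with a difference of −1.25 (SE 0.27, adjusted p = 0.231). LYPD1 fell in LN229 from 218 to 273 CPM to 129 and 65.9, where the XRN2 siRNA replicates again lay far from each other. Its difference was −1.43 (SE 0.32, adjusted p = 0.231), and it did not pass without both libraries (adjusted p = 0.142). MT2A, a metal-binding metallothionein, fell by 1.29 (SE 0.20, adjusted p = 0.00275) in LN229 with a U251 response of −0.10 (SE 0.19). Metallothionein genes are near-identical copies, and reads may be split between them. H1F0, the linker histone of differentiated cells, fell by 0.55 (SE 0.11, adjusted p = 0.00966) in LN229 and had a U251 response of 0.11 (SE 0.11). ID1, MT2A and H1F0 passed without both libraries, with differences of −0.94, −0.90 and −0.61.

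**Figure D4:**
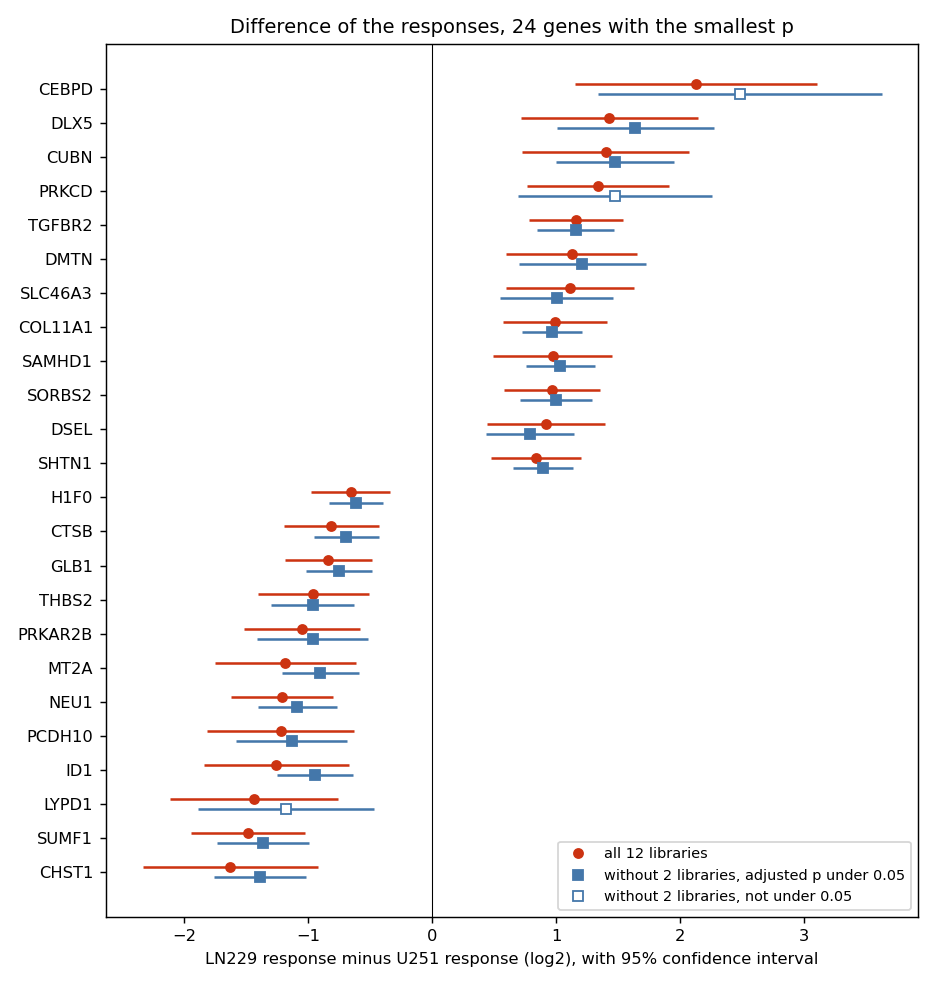
LN229 response minus U251 response on the log2 scale with its 95% confidence interval, for the 24 genes with the smallest p, 12 upward and 12 downward; red circles are all 12 libraries and blue squares the fit without LN229 control siRNA replicate 1 and U251 mock replicate 2. Filled squares had an adjusted p under 0.05, and all but PRKCD, CEBPD and LYPD1 are filled.

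Responses in opposite directions were rare. The XRN2 siRNA libraries lay wholly above the controls in LN229 and wholly below them in U251 for 53 genes (0.508%), and the reverse held for 70 (0.671%), beside 461 (4.42%) above in both lines and 593 (5.68%) below in both. With 2 libraries against 4, some genes are wholly apart by chance alone, so these counts do not by themselves show opposite responses. With at least a 1.3-fold change in each line the opposite sets held 4 (0.0383%) and 9 (0.0862%) genes. CHST1 (ENSG00000175264; chromosome 11, 45648877 to 45665622, minus strand), a keratan sulfate sulfotransferase, lay at 39.7 to 48.5 CPM in the LN229 controls against 20.9 and 15.4 with XRN2 siRNA, and at 36.3 to 77.9 CPM in the U251 controls against 78.8 and 87.8. CHST1 fell by 1.22 (SE 0.25, adjusted p = 0.0133) in LN229, and its U251 response was 0.40 (SE 0.22, adjusted p = 0.736). The lowest U251 control, 36.3 CPM, was mock replicate 2, and without both libraries the U251 response was 0.20 and the difference −1.39 (SE 0.17, adjusted p = 0.00121) in place of −1.62 (SE 0.33, adjusted p = 0.173).

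PRKAR2B (ENSG00000005249; chromosome 7, 107044649 to 107161811, plus strand), a regulatory subunit of protein kinase A, fell in LN229 from 52.7 to 58.3 CPM to 43.4 and 31.7. In U251 its controls lay at 8.79 to 11.5 CPM and the XRN2 siRNA libraries at 14.3 and 14.7, a response of 0.50 (SE 0.17, adjusted p = 0.493). PCDH10 (ENSG00000138650; chromosome 4, 133149315 to 133208606, plus strand), a protocadherin of the cell surface, lay at 26.2 to 36.8 CPM in the LN229 controls against 26.2 and 16.5, and at 26.3 to 37.5 CPM in the U251 controls against 53.2 and 56.4. For PCDH10 the lower bound of the LN229 controls and the higher XRN2 siRNA library were almost equal, so the direction in LN229 rests on replicate 2. METRN (a glial secreted factor), MTFP1 (mitochondrial fission) and PRRX1 (a homeobox factor of mesenchyme) had LN229 responses of −1.05 to −0.46 and U251 responses of 0.38 to 0.44. Of these 3 MTFP1 alone passed in LN229 and none passed in U251. Of the 4 genes above the controls in LN229 and below them in U251 by at least 1.3-fold in each line, those beside SORBS2 and the clone-named gene AC016876.2 were CITED1, a transcriptional coactivator, with responses of 0.65 and −0.77, and FICD, an enzyme that modifies HSPA5, with 0.52 and −1.03. FICD rests on U251 mock replicate 2, at 38.3 CPM against 9.94 to 11.6 in the other U251 controls, and its U251 response was −0.34 without both libraries. CHST1, PRKAR2B, PCDH10, METRN and PRRX1 were called by all 3. CITED1 and MTFP1 passed without both libraries (adjusted p = 0.0396 and 0.0365) and FICD did not (0.119).

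Some genes had like responses. The 6 genes with the smallest p for the mean response whose responses differed by less than 1 SE were SPP1, TFPI, DDAH1, CTSO, NT5E and GAA. SPP1, the secreted phosphoprotein osteopontin, lay at 105 to 133 CPM in the LN229 controls against 62.7 and 72.4, and at 106.8 to 129 CPM in the U251 controls against 70.6 and 67.2. Its responses were −0.85 (SE 0.14) and −0.74 (SE 0.14), with a difference of −0.10 whose 95% interval ran from −0.50 to 0.29, and the mean response passed (adjusted p = 0.00113), as did that of 569 genes (5.45%, beside 4.79% of all genes tested). NT5E, the ecto-5′-nucleotidase CD73, had responses of −1.04 and −1.09 with an interval of the difference from −0.61 to 0.71. TFPI (an inhibitor of the coagulation factor pathway), DDAH1 (which breaks down methylarginines), CTSO (a cathepsin, upward in both) and GAA were wholly apart from the controls in both lines, as were SPP1 and NT5E. They were chosen for their likeness, so it is a description, and the intervals do not show that the lines act alike.

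Cell cycle lists had lower responses in LN229 for nearly all members. All 41 mitosis and G2/M genes expressed in both lines had a negative response in both lines and a negative difference, with medians of −0.69 in LN229, −0.33 in U251 and −0.40 for the difference. In LN229 25 of the 41 fell, beside 4.7% of all 10436 genes, and in U251 none passed. Without both libraries 39 of the 41 fell in LN229, beside 13% of all genes. In bulk RNA fewer dividing cells and less of these transcripts per cell cannot be told apart. The difference was negative for 41 of 41 without both libraries too (median −0.31) and for 39 of 41 without TMM factors. MAD2L1, a spindle checkpoint protein, fell by 1.53 (SE 0.22, adjusted p = 0.00202) in LN229, from 85.6 to 98.6 CPM to 42.2 and 19.1, and its U251 response was −0.46 (SE 0.21, adjusted p = 0.657). All 43 DNA replication and G1/S genes had a negative difference (median −0.49), 40 of 43 without both libraries (median −0.30). Of the 43, 9 fell in LN229, beside 4.7% of all 10436 genes, and 21 without both libraries, beside 13%. LIG1, the replicative DNA ligase, fell by 0.88 (SE 0.18, adjusted p = 0.0133) in LN229 with a U251 response of 0.15 (SE 0.18). No gene of either list passed the test of the difference with all libraries. Without both, INCENP (2.44% of the 41) and LIG1 (2.33% of the 43) passed, beside 1.28% of all 10436 genes. All 11 histone genes of the list had a negative difference (median −0.46, and −0.21 without both). Of the 11, 6 fell in LN229, beside 4.7% of all 10436 genes, and 7 without both, beside 13%. H1F0 and H2AFX passed for the difference without both (18.2% of the 11, beside 1.28%).

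Interferon-stimulated genes lay on the other side. Of the 27 expressed in both lines, 24 had a positive difference, with medians of 0.32 in LN229, 0.06 in U251 and 0.30 for the difference, and the count was also 24 (median 0.32) without both libraries. IFIT3, an antiviral protein that binds RNA, was the only 1 of the 27 to pass in LN229, where 2.06% of all 10436 genes rose. Its level went from between 19.5 and 24.001 CPM to 29.7 and 34.2 there, a rise of 0.60 (SE 0.15, adjusted p = 0.0276), beside U251 controls at 11.3 to 14.6 CPM and XRN2 siRNA libraries at 11.1 and 9.96. The difference of IFIT3 did not pass with all libraries (0.87, SE 0.23, edgeR adjusted p = 0.331) or without both (0.84, SE 0.22, adjusted p = 0.0783). Without both libraries 10 of the 27 rose in LN229, beside 10.3% of all 10436 genes, and none rose in U251, where 28 of the 10436 did. IFITM3 then passed for the difference (3.7% of the 27, beside 1.28% of all 10436 genes). Of the 18 glial and neural stem genes, 12 had a negative difference (median −0.27, and −0.29 without both). ID1 and SOX2, a stem cell factor, passed without both (11.1% of the 18, beside 1.28% of all 10436 genes). SOX2 passed in no other of the 25 alternative settings, over which its difference ran from −3.132 to −0.495. CCL2, a chemokine, had a difference of 1.297 (SE 0.39, adjusted p = 0.414) with all libraries and of 1.69 (SE 0.22, adjusted p = 0.00121) without both, where it rose by 0.71 in LN229 (adjusted p = 0.000127) and fell by 0.99 in U251 (adjusted p = 0.0337).

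Several list differences rested on the libraries that stood apart. Of 38 unfolded protein and ATF4 response genes 35 had a positive difference, with a median of 0.62 and a U251 median response of −0.80, and without both libraries 10 were positive, with medians of −0.15 and −0.01. All 46 ribosomal protein genes had a negative difference (median −0.24), and without both 24 were positive and 22 negative (median 0.00). The nuclear-encoded oxidative phosphorylation genes had 32 of 40 negative differences (median −0.18), and 13 of 40 without both (median 0.03). Across the genes the difference had a Spearman correlation of 0.23 with exon length, which was 0.01 without LN229 control siRNA replicate 1. The mitosis, replication, histone, interferon and glial lists kept the sign of their median without both libraries. That covers the 2 control libraries alone, and the size of single differences depended on the setting. Over the main fit and the 25 alternative settings the difference ran from −1.76 to −0.618 for MAD2L1. For LIG1 it ran from −1.338 to −0.779 and for INCENP from −0.932 to −0.16.

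**Figure D5:**
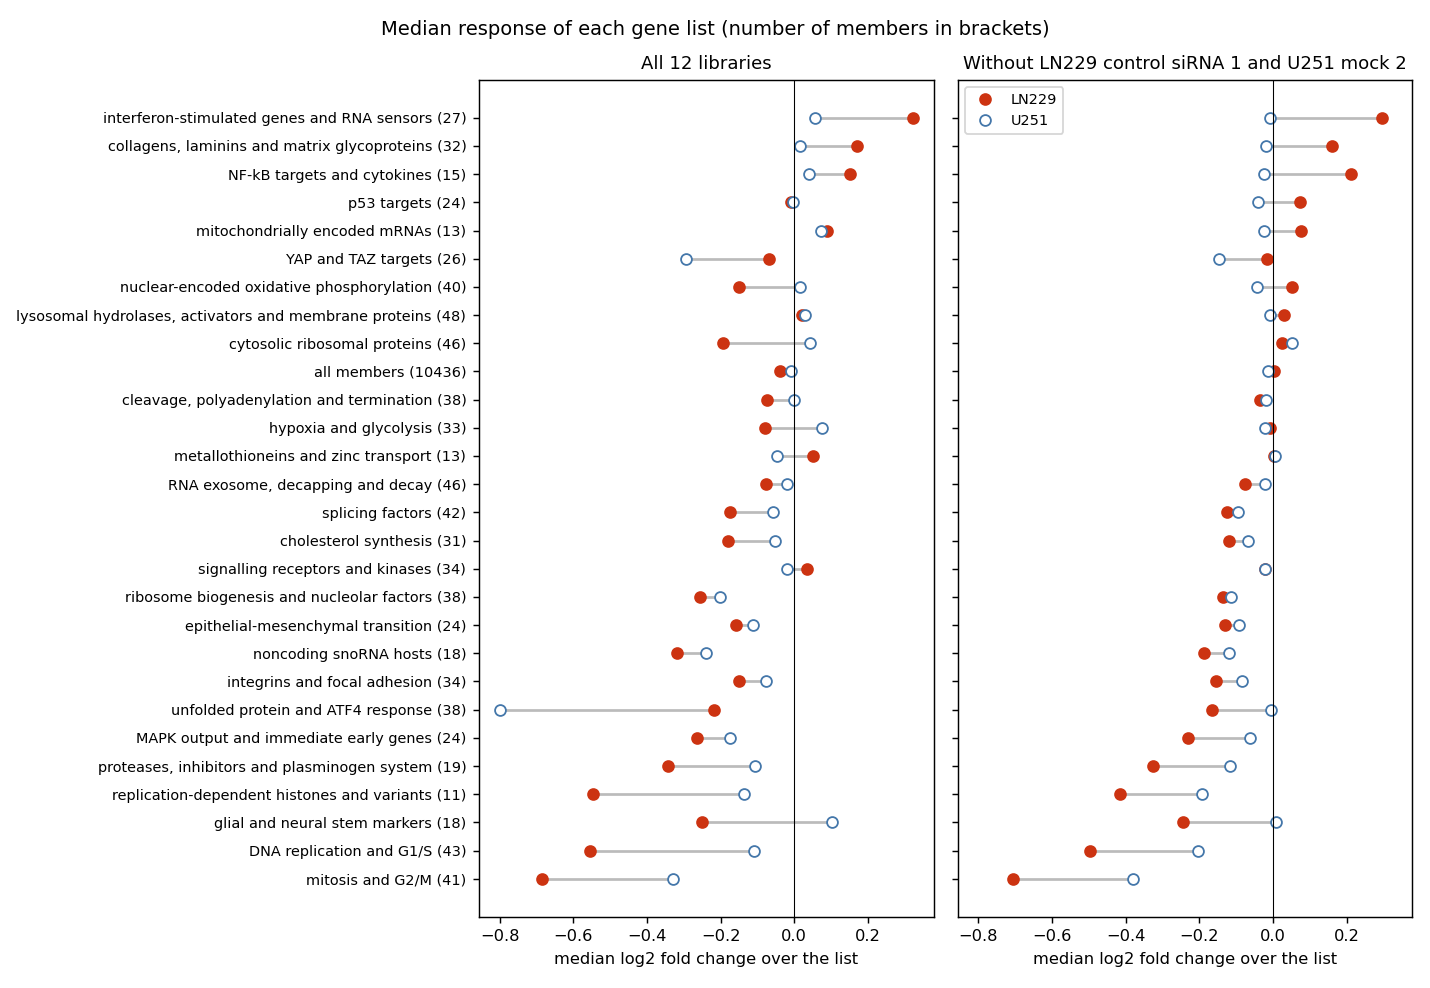
Median log2 fold change of XRN2 siRNA against controls over each gene list in LN229 (filled) and U251 (open), with all 12 libraries (left) and without LN229 control siRNA replicate 1 and U251 mock replicate 2 (right); lists are ordered by the median difference of the right panel. The U251 median of the unfolded protein list moves from −0.80 to −0.01 between the panels, and the mitosis list is lowest in LN229 in both, at −0.69 and −0.71.

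Lists tied to XRN2's own pathways showed little difference. Of 38 cleavage, polyadenylation and termination genes 19 were positive and 19 negative (median 0.00), and XRN2 was the call without both libraries. Among 46 genes of the RNA exosome, decapping and other decay, 19 were positive and 27 negative (median −0.05). LSM4, a subunit of the decapping activator ring, fell by 0.67 (SE 0.17, adjusted p = 0.029) in LN229, with a U251 response of −0.02 (SE 0.16). Its difference did not pass with all libraries (−0.65, SE 0.23, edgeR adjusted p = 0.483) or without both (−0.39, SE 0.12, adjusted p = 0.12). Ribosome biogenesis genes had 33 of 38 negative responses in LN229 (median −0.26) and 37 of 38 in U251 (median −0.20), and the median difference was −0.06. Of these genes 1 fell in LN229, beside 4.7% of all 10436 genes, and none passed in U251. Without both libraries the median responses were −0.14 and −0.11, and 9 of the 38 fell in LN229, beside 13% of all 10436 genes. The 18 noncoding snoRNA host genes had 16 negative responses in LN229 and 15 in U251 and a median difference of −0.07. None of them passed in either line with all libraries, and 1 fell in LN229 without both, beside 13% of all 10436 genes.

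IGFBP3 was the gene other than XRN2 that passed in U251. It lay at 76.7 to 99.7 CPM in the U251 controls and at 216 and 192 with XRN2 siRNA, a rise of 1.14 (SE 0.18, adjusted p = 0.026). In LN229 the XRN2 siRNA libraries, at 31.5 and 16.1 CPM, lay on either side of the controls at 19.7 to 26.0. The difference of −0.997 (SE 0.28, adjusted p = 0.388) did not pass, nor did it without both libraries (−0.77, SE 0.25, adjusted p = 0.2).

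Reads in introns were tested in the same way. In 12444 genes with enough intron reads 0 passed for the difference by edgeR's test, with 341 at an unadjusted p under 0.05, and the exon and intron differences had a Spearman correlation of 0.34 over 9085 genes. For SUMF1 the intron difference was 0.16 (SE 0.40) beside −1.48 in exons, for GLB1 −0.33 (SE 0.38) and for CTSB 0.68 (SE 0.50). Intron differences of PRKCD (1.96, SE 0.66), COL11A1 (1.19, SE 0.43) and LYPD1 (−1.41, SE 0.43) had the sign of their exon differences. The kit keeps no strand, so intron reads of overlapping genes cannot be told apart.

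Markers of other cell types differed in level between the lines. Of 8 blood cell markers CD68 alone passed the filter on low counts, and this protein of lysosomes and endosomes lay at 6.98 to 9.68 CPM in the LN229 controls against 5.02 and 1.403, and at 47.4 to 63.8 CPM in the U251 controls against 66.0 and 69.7. CD68 had a difference of −1.63 (SE 0.38, adjusted p = 0.242) and was singled out after its values were seen. The summed level of 3 epithelial markers was 2.99 to 7.99 CPM in all libraries and that of 5 endothelial markers 12.8 to 49.8. Oligodendrocyte markers summed to 1110 to 1290 CPM in the LN229 controls and to 1380 and 1600 with XRN2 siRNA, and to 214 to 313 CPM in all U251 libraries. The 8 of 9 fibroblast and pericyte markers that were tested summed to 466 to 621 CPM in the LN229 controls and to 526 and 551 with XRN2 siRNA. In U251 they summed to 2090 to 3360 CPM in the controls and to 3350 and 3420 with XRN2 siRNA. The 4 of 8 neuronal markers that were tested summed to 404 to 423 CPM in the LN229 controls against 442 and 466, and to 164 to 277 CPM in the U251 controls against 180 and 181. Their part in the results was not tested.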

How the data were processed

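Polyadenylated RNA of 2 glioblastoma lines was measured in 12 libraries, made per the labels' protocols from 1 µg of total RNA with the TruSeq v2 kit, which keeps no strand. Per the file headers, the deposited values used are read counts of total exon reads per gene; unique exon and intron counts served as alternatives. GRCh37 and hg19 are the builds listed in the submitters' processing notes, but 56006 of 57836 shared gene identifiers (96.8%) have GENCODE 29 coordinates, those of GRCh38. No source used here names the aligner or counter, and reads shared by near-identical copies or overlapping genes are uncertain.

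Genes were kept by filterByExpr (minimum count 10, minimum total 15), scaled by TMM and fitted in edgeR 4.0.16 (R 4.3.3) with 4 means, line by control or XRN2 siRNA, and robust quasi-likelihood dispersions with 8 residual degrees of freedom. The difference, each line's response and their mean were tested two-sided, with Benjamini-Hochberg adjustment over all 14232 genes at 0.05. The script was tested on simulated data. Alternatives used DESeq2 1.42.0, limma 3.58.1 (voom with sample weights), other scalings, filters and controls, a replicate block and left-out libraries.

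Named genes were XRN2, the 12 higher and 12 lower differences with the smallest p and at least 1.5-fold, up to 6 opposite in each direction (1.3-fold in each line), 6 alike, and from each of 27 lists the member with the smallest p; clone-like names were passed over. The members, lists, and the 2 libraries left out together were chosen with earlier results of these data known. Of 1004 list symbols, 14 had no match.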

Additional observations from a re-analysis of the deposited data

Results flagged for a closer look

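The 4 controls of each line were checked for a value far from the others in 30 named genes, and 3 of 60 sets stood out, where chance alone marks about 1 in 20. All 3 were U251 mock replicate 2. SHTN1 lay at 68.76 CPM there against 80.07 to 82.31 in the other U251 controls, PCDH10 at 26.31 against 36.64 to 37.46, and FICD at 38.26 against 9.938 to 11.62. Without both libraries that stood apart, the differences were 0.90 for SHTN1, −1.13 for PCDH10 and 0.88 for FICD, beside 0.84, −1.22 and 1.56 with all libraries.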

How the results depend on the processing

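Of 49 named differences, 48 kept their sign in all 25 alternative settings, and MT-ND3 turned, from −0.249 to 0.0389 without both libraries that stood apart. The counts of genes called depended on the setting. For the difference, with 0 in the main fit, DESeq2 gave 33, no filter 34, a fit of the expressed genes alone 2, limma-voom 90 and leaving out both libraries 134; single libraries left out gave 0 to 75, and 16 of the 25 settings gave 0. For LN229 (705), control siRNA alone as control gave 374, mock alone 139, limma-voom 1438, both libraries left out 2433, and single libraries left out 15 to 1253. For U251 (2), DESeq2 gave 15, no filter 17, the expressed genes alone 1, control siRNA alone 1, mock alone 1, limma-voom 451, both left out 66, and single libraries 1 to 13. For the mean (569), DESeq2 gave 941, control siRNA alone 148, mock alone 175, limma-voom 1989, both left out 2173, and single libraries 45 to 1267. The Pearson r between the responses was 0.27 with unique exon reads in place of 0.42. The Spearman correlation of the difference with exon length (0.23) was 0.40 with control siRNA alone, 0.0158 with mock alone, 0.0396 with limma-voom, 0.00192 without both libraries, and, with single libraries left out, 0.00804 (without LN229 control siRNA replicate 1) to 0.297. The causes of these changes were not tested.

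Replicate numbers showed little sign of pairing: deviations of same-numbered libraries from their group means had r of 0.08, 0.03 and 0.03 in LN229 and −0.06, 0.03 and 0.13 in U251. The LN229 control siRNA and U251 mock pairs each hold a library that stood apart (SD of replicate 2 minus 1, 0.49 and 0.43). These values can hide a weak pairing, so they do not settle whether the samples were paired. With a replicate block 2 genes were called for the difference.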
